A study of Mus musculus with 117 samples.

Results

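The genes described here are 10 transcription factor genes listed for their known roles in astrocyte identity, namely Sox9 and Sox2, the nuclear factor I genes Nfia, Nfib and Nfix, the inhibitor of DNA binding genes Id3 and Id4, the Notch target Hes5, the nuclear receptor gene Rorb and the LIM homeobox gene Lhx2. They were chosen by name, as genes known for roles in astrocytes and their precursors, and not by a value measured here. Earlier results of these data were known, however, when these genes and the pathway lists below were chosen. They are 10 of the 27179 genes with counts. All 10 had counts in at least some of the 117 libraries and all 10 passed the filter on low counts in the time course, although Lhx2 was close to 0 in most of them. The data go against the label for Lhx2, which had counts in 1 of the 4 uninjured astrocyte libraries and in all 4 of flow-through RNA (log2 ratio -2.76 ± 1.21, edgeR adjusted p = 0.059). Of the other 9, Sox9, Sox2, Nfia, Nfib, Nfix, Id3, Id4 and Rorb had counts in every library, and Hes5 was without counts in 6 libraries at 2 d after injury and in 1 male astrocyte library at 5 d.

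These factors act in order during gliogenesis. Sox2 keeps neural precursors undifferentiated, Sox9 starts the switch from making neurons to making glia and induces Nfia, and NFI proteins then work with SOX9 on genes such as Apcdd1 and Mmd2. ID proteins bind E proteins and keep them from pairing with proneural or oligodendroglial bHLH factors such as Olig1 and Olig2. Id genes are textbook targets of BMP signaling through SMADs. Hes5 is a direct target of Notch signaling through the DNA-binding protein RBPJ, and its protein represses proneural genes. Many of these factors stay on in adult astrocytes, where SOX9 is a common nuclear marker.

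The study measured ribosome-bound mRNA of spinal cord astrocytes in RiboTag mice, in which Cre puts an HA tag on a ribosomal protein. Precipitated RNA made 70 astrocyte libraries and the RNA remaining in solution made 47 flow-through libraries. Aldh1l1-CreERT2 mice carried a tamoxifen-inducible Cre under Aldh1l1, which tags cells that were already mature astrocytes as young adults. They were young adults, and 4 females were left uninjured. The injury was a complete crush spinal cord injury (SCI) at the lower thoracic level. Females were taken 2 d (5 mice), 5, 14, 28, 42 and 70 d (4 mice each) after it. Males were taken at 5 and 14 d (4 mice each). mGfap-Cre-73.12 mice carried a Cre under the mouse Gfap promoter that needs no drug, so that their tag also reached any cell with an earlier history of Gfap expression. These gave libraries of both kinds from 5 females 14 d after SCI and 5 uninjured adults of postnatal day 63 (P63, 3 males and 2 females), and astrocyte libraries alone at P0 (4), P3 (3), P7 (3), P14 (5), P21 (4) and P35 (4). Tissue blocks reached 1 mm to either side of the lesion center, or were taken from the matching region of uninjured cord. All mice of both lines carried the RiboTag allele and their Cre, controls included, and 1 mouse gave each library. In such bulk RNA, fewer cells that express a gene and less RNA per cell cannot be told apart.

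Total counts on genes ran from 67253656 to 128400518 in the astrocyte libraries and from 40710428 to 136008399 in the flow-through libraries. Levels are given as CPM, the count of a gene scaled to a common library total with TMM factors over all 117 libraries, and as CPM per kilobase of exon where genes are set beside each other. The astrocyte label held in uninjured Aldh1l1-CreERT2 mice, since 12 of 12 astrocyte marker genes were enriched over flow-through RNA (median log2 ratio 4.98), with none at 0. Other cells' markers moved with injury in the astrocyte libraries. The summed level of 12 myeloid markers was 63.2 to 126.3 CPM in uninjured mice, 1673 to 2907 at 2 d, 16140 to 20850 at 5 d, 11790 to 17910 at 14 d and 1705 to 5100 at 70 d. In flow-through libraries of the same mice this sum was 6399 to 8026 CPM at 5 d and 8418 to 10320 CPM at 14 d, below the astrocyte libraries. At 2 d it was above them (7274 to 10880 CPM), and at 70 d the ranges overlapped (4256 to 9409 CPM). In astrocyte libraries at 5 d all 12 myeloid markers were higher than in those of uninjured mice, and none was at 0 in any group. The 6 ependymal markers summed to 78.88 to 93.11 CPM in uninjured mice and 28.57 to 41.65 CPM at 2 d. At 70 d they summed to 244.6 to 290.3 CPM. The 6 stromal markers summed to 371.7 to 856 CPM in uninjured mice, 1382 to 2040 at 14 d and 562.9 to 952.3 at 70 d. Neuron markers fell, from 482.7 to 575.6 CPM to 111.2 to 455.4 CPM at 70 d, and so did oligodendrocyte markers, given below. The summed level of the 12 astrocyte markers was 75460 to 89290 CPM in uninjured mice, 29930 to 40070 at 2 d and 30540 to 45300 at 5 d. It was 52120 to 63480 CPM at 14 d and 66440 to 70770 at 70 d. The part of these cells in the changes below was not tested. At P0, replicate 3 stood apart (for Sox9, 33.5 CPM against 145 to 169 CPM in the other P0 mice). The calls that rest on P0 are given with and without it. The P35 libraries were uneven in markers of other cells, as given with the ages below.

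RefSeq promoter windows on GRCm38.p6 were at hand for 8 of the 10 genes, all but Sox9 and Nfib. The 250 bases before the annotated start are shown for Hes5, Id3 and Id4 because their regulation by Notch (Hes5) and BMP (Id3, Id4) is textbook knowledge and those pathways are described below. Capitals mark the core letters bound by RBPJ, TGGGAA, searched on both strands. They occur in 21.6% of 32851 promoters, and at 2 or more places in 2.77%. Hes5 is at chr4:154960673-154960922, Id3 at chr4:136143572-136143821 and Id4 at chr13:48260866-48261115, all on the plus strand and written 5′ to 3′. For Hes5 the window precedes 1 of its annotated starts, and the gene annotation begins further upstream.
Hes5: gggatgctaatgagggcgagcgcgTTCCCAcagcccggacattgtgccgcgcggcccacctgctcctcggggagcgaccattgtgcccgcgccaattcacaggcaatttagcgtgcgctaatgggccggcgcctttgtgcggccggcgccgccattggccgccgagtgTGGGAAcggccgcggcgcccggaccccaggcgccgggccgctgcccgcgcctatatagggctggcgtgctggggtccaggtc
Id3: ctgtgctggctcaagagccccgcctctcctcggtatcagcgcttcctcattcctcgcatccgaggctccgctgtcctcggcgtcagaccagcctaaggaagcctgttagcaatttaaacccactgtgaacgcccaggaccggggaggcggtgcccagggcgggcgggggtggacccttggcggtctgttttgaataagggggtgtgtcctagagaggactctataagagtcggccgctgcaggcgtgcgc
Id4: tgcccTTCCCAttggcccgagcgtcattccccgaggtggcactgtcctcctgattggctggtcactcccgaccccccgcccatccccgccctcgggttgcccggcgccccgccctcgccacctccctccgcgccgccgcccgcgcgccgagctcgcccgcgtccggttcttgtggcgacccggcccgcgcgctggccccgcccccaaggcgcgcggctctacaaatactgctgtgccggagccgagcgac
The Hes5 window held the RBPJ letters at 2 places, 226 bases before the start on the minus strand and 82 bases before it on the plus strand. It also held 4 copies of the SMAD-type box GGCGCC, found in 9.59% of promoters, at 123, 106, 69 and 54 bases before the start. The Id4 window had 1 copy of the RBPJ letters, 245 bases before the start, and 1 GGCGCC, 148 bases before it. The Id3 window held neither. Among the 5 other genes searched, Rorb (202 bases before the start) and both windows of Lhx2 (230 and 9 bases before) also held the RBPJ letters, and Nfix (64 bases before) and the first window of Lhx2 (9 bases before) GGCGCC. These are matches of letters only, and binding was not measured here.

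In uninjured adult astrocytes, these genes covered a wide range of levels and 9 of the 10 were enriched over the flow-through RNA of the same mice. Per kilobase of exon, Id3 was highest at 222 ± 13.2 CPM (SD, n = 4), followed by Sox2 at 161 ± 13.3 and Sox9 at 77.2 ± 12.5. Id4 followed at 56.1 ± 4.29 and Nfix at 36.04 ± 8.67. Nfib (22.9 ± 1.69) and Nfia (20.9 ± 1.18) were next, and their difference was within their spread, while Rorb was at 15.9 ± 2.12 and Hes5 was far below at 2.89 ± 0.798. Lhx2 had counts in only 1 of 4 libraries. Sox9 had the largest ratio of astrocyte to flow-through RNA, with 256, 299.7, 364 and 359.9 CPM in the 4 astrocyte libraries and 11.4, 9.82, 11.8 and 9.69 CPM in the 4 flow-through libraries. That was a log2 ratio of 4.92 ± 0.14 (SE), or 30.2-fold, with an adjusted p of 7.4e-11 (edgeR quasi-likelihood F test with Benjamini-Hochberg correction, used throughout with a threshold of 0.01). Sox2 was enriched by a log2 ratio of 4.53, Rorb by 3.75, Id4 by 3.49, Nfix by 3.04, Nfib by 2.89, Id3 by 2.70 and Nfia by 2.15. Hes5 was the least enriched of the 9, at 3.86, 3.602, 5.31 and 6.44 CPM in astrocyte and 2.42, 2.48, 2.21 and 2.35 CPM in flow-through libraries, a log2 ratio of 1.03 ± 0.21 (SE, edgeR adjusted p = 8.9e-04). The groups did not overlap for any of these 9 genes. For comparison, 62.1% of the 17595 genes tested differed between the fractions, 30.7% higher in astrocytes, and the median of the members was a log2 ratio of 2.96 against -0.08 over all genes.

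**Figure D1:**
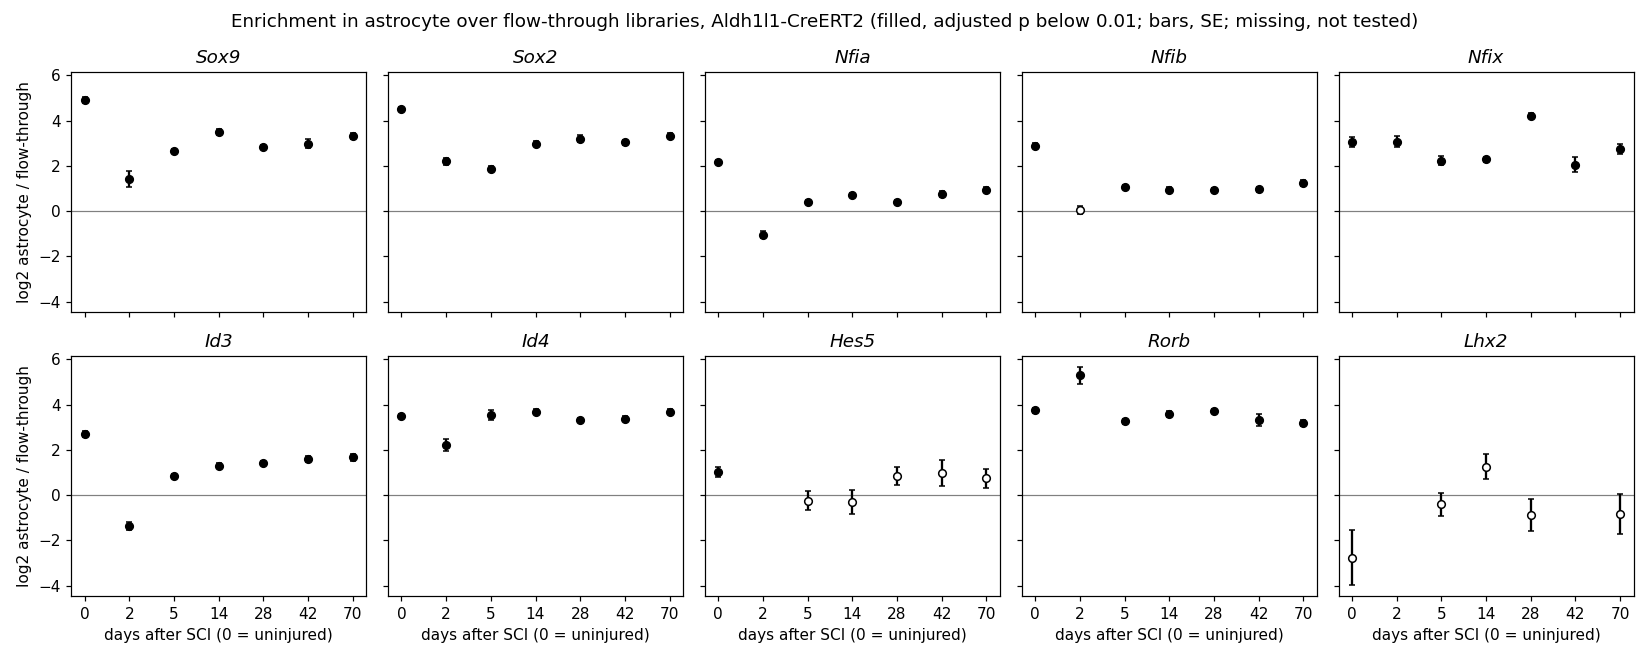
Log2 ratio of astrocyte to flow-through RNA (y axis, fitted value with bars for SE) at each time after SCI in Aldh1l1-CreERT2 females (x axis, days, 0 for uninjured), 1 panel a gene, filled points being past the threshold. Every gene but Lhx2 started above 0, and at 2 d Nfia (-1.04) and Id3 (-1.37) were below 0 and Nfib (0.04) close to it.

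After SCI most of these genes fell together at 2 and 5 d, and from 14 d they parted. At 2 d, 8 of the 10 were lower than in uninjured astrocytes and none higher, where 60.1% of 18205 genes were past the threshold, 29.9% lower. Id4, Nfix and Hes5 fell most. At 5 d, 9 of the 10 had changed, 8 lower and 1, Id3, higher (56.8% of all genes, 28.7% higher and 28.1% lower). At 14 d 7 had changed, 1 higher and 6 lower (47.3%, 24.5% higher and 22.8% lower), and at 28 d again 7, 2 higher and 5 lower (41.9%, 22.8% higher and 19.1% lower). At 42 d 6 had changed, 2 higher and 4 lower (43.3%, 23.3% higher and 20% lower), and the same split stood at 70 d (45.3%, 23.9% higher and 21.5% lower). The median over the 10 genes was a log2 fold change of -1.16, -1.11, -0.68, -0.44, -0.39 and -0.30 at these 6 times in turn, while the median over all genes tested lay between -0.04 and 0.05. All 6 comparisons share the same 4 uninjured mice. The summed astrocyte markers given above were lowest at 2 and 5 d as well, and whether the 10 genes fell beyond them was not tested. Between neighboring times, 6 of the 10 changed from 2 to 5 d (3 higher, 3 lower, where 41.4% of all genes changed, 21.8% higher and 19.6% lower), 4 from 5 to 14 d, all higher (25.3%, 12.7% higher), and 1 from 14 to 28 d, Sox2, higher (7.4%, 2.92% higher). From 28 to 42 d edgeR called none of the 10 (1.67% of all genes), with 5 at an unadjusted p under 0.05 and 1 called by DESeq2. From 42 to 70 d it again called none (12.6%), with 1 at an unadjusted p under 0.05 and none by DESeq2.

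**Figure D2:**
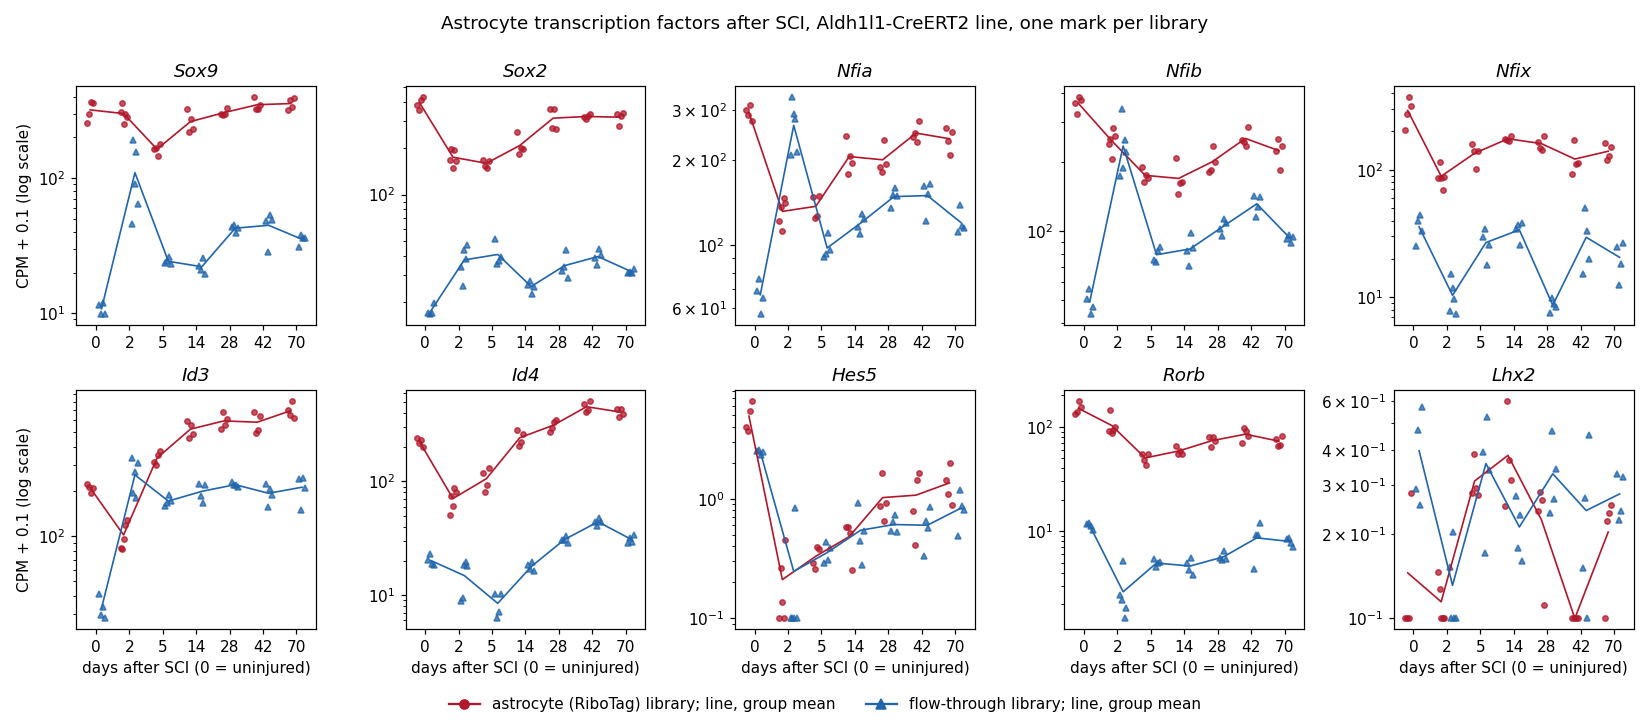
CPM (log scale, 0.1 added so that 0 can be shown) of each gene in each Aldh1l1-CreERT2 library by days after SCI, with circles for astrocyte and triangles for flow-through libraries and lines through the group means. Id3 ended well above and Hes5 well below their uninjured levels, Sox9 ended close to its own, Sox2 ended slightly below, and in flow-through libraries Nfia, Nfib and Sox9 peaked at 2 d.

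Sox9 (chr11:112782210-112787757, plus strand, GRCm38.p6) encodes the SOX factor that starts gliogenesis. It was lower only at 5 d. Astrocyte libraries of uninjured mice had 256, 299.7, 364 and 359.9 CPM, and those at 2 d 309, 359.9, 252, 301 and 281. The groups at 0 and 2 d overlapped, and the log2 fold change was -0.09 ± 0.11 (SE, adjusted p = 0.51). At 5 d the libraries had 164, 167, 146 and 178 CPM. Every 5 d library was below every uninjured and every 2 d library, with a log2 fold change of -0.99 ± 0.12 (SE, edgeR adjusted p = 2.9e-08) against uninjured mice and -0.91 ± 0.12 (adjusted p = 1.6e-07) against 2 d. Sox9 then rose from 5 to 14 d (log2 fold change 0.65 ± 0.12 SE, adjusted p = 8.9e-05), and at 70 d it was 319, 381, 336 and 391 CPM, within the uninjured range but for 2 libraries above it (0.16 ± 0.12 SE, adjusted p = 0.26). The 14 d value of -0.34 ± 0.12 (edgeR adjusted p = 0.016) missed the threshold and passed it without uninjured replicate 1 or 14 d replicate 1 (-0.44 and -0.46). In flow-through libraries Sox9 went the other way, from 9.69 to 11.8 CPM in uninjured mice to 45.8, 192.995, 90.1, 155 and 64.6 CPM at 2 d. The 2 d libraries were widely spread and all above the uninjured ones, with a log2 fold change of 3.40 ± 0.29 (SE, edgeR adjusted p = 2.5e-11), or 10.6-fold.

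Sox2 (chr3:34649995-34652461, plus strand), the SOX factor of neural precursors, fell early and was not past the threshold from 28 d on. Uninjured astrocyte libraries had 384, 357, 415 and 431 CPM, those at 2 d 167, 199, 149.6, 196 and 164 and those at 5 d 169, 154, 149 and 167. Neither of these groups overlapped the uninjured libraries, and the log2 fold changes were -1.17 ± 0.11 (SE, edgeR adjusted p = 6.1e-11) at 2 d and -1.34 ± 0.11 (SE, adjusted p = 2.0e-11) at 5 d. At 14 d Sox2 was at 255, 183, 201 and 197 CPM and still lower (-0.98 ± 0.11 SE, adjusted p = 1.4e-08). It rose from 14 to 28 d, to 360.1, 272, 360.3 and 268 CPM (log2 fold change 0.65 ± 0.11 SE, edgeR adjusted p = 2.9e-04). At 28, 42 and 70 d the differences from uninjured mice were -0.33, -0.28 and -0.31, with adjusted p of 0.013, 0.032 and 0.02, none past the threshold. All libraries at 42 d (322, 311, 323 and 334 CPM) and 70 d (334, 278, 326 and 339.6 CPM) nevertheless lay below all uninjured ones, while those at 28 d overlapped them. The 28 d difference passed it when uninjured replicate 2, 28 d replicate 1 or 28 d replicate 3 was left out (-0.38, -0.41 and -0.40). Sox2 lies inside Sox2ot, a long noncoding gene annotated on the same strand and counted as its own gene, and counts are uncertain wherever exons of 2 genes overlap.

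The 3 nuclear factor I genes encode factors that bind DNA as dimers and drive astrocyte genes, and all 3 were still below their uninjured range at 70 d. Nfia (chr4:97578066-98118876, plus strand) fell from 298, 289, 312 and 273 CPM to 122, 137, 112, 147 and 141 CPM at 2 d. No library of these groups overlapped, and the log2 fold change was -1.15 ± 0.10 (SE, edgeR adjusted p = 1.7e-11). Nfia stayed low at 5 d (148, 124, 127 and 149 CPM), rose from 5 to 14 d by 0.56 ± 0.10 (SE, adjusted p = 8.8e-05) and was at 259, 232, 208 and 249.7 CPM at 70 d. Those 70 d libraries were all below the uninjured ones, but the difference of -0.30 missed the threshold (edgeR adjusted p = 0.014).

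Nfib (chr4:82290173-82506751, minus strand) declined more slowly than Nfia and was lowest at 5 and 14 d. Its libraries had 364, 323, 384 and 375 CPM in uninjured mice and 241, 252, 206, 282 and 259 CPM by 2 d, then 190.2, 164, 177 and 170.1 CPM on day 5 and 209, 145, 163 and 164 CPM on day 14. Each injured group was below the whole uninjured range, with log2 fold changes of -0.54 ± 0.10 (SE, adjusted p = 3.6e-05), -1.07 ± 0.11 and -1.14 ± 0.11 (SE, edgeR adjusted p = 4.9e-10) in turn. Nfib fell again between 2 and 5 d, by -0.53 on the log2 scale. At 70 d it was at 225, 252, 186 and 236 CPM and still lower (-0.68 ± 0.11 SE, edgeR adjusted p = 5.5e-06).

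Nfix (chr8:84704712-84801238, minus strand) was the lowest of these 3 genes against its uninjured level at 2, 42 and 70 d, but not at 14 d, when Nfib was lower. It fell from 203, 274, 369 and 315 CPM to 85.6, 114, 86.2, 69.3 and 88.2 CPM at 2 d, a log2 fold change of -1.71 ± 0.17 (SE, edgeR adjusted p = 5.1e-10). After a partial rise to 158, 139, 102 and 139 CPM at 5 d (log2 fold change against 2 d 0.57 ± 0.16 SE, adjusted p = 0.0048), it was at 92.03, 169, 110.4 and 112 CPM at 42 d and 160.3, 118, 128 and 151 CPM at 70 d. No injured female library reached the lowest uninjured one, and the log2 fold change at 70 d was -1.05 ± 0.17 (SE, edgeR adjusted p = 1.1e-05). Males at 14 d had 161.7 to 234.3 CPM and so overlapped the uninjured females, and no uninjured males of this line were measured. The 2 and 5 d groups overlapped, and the rise between them lost its call without any of 2 d replicates 1, 3 or 4 or 5 d replicates 1, 2 or 4 (0.48 to 0.56), and with replicate number as a block (adjusted p = 0.014). Nfic, the fourth gene of the family, fell at 2 d (log2 fold change -0.85) and was at 0.01 at 5 d and -0.35 at 70 d, neither past the threshold. At 42 d it was lower again (-0.55, edgeR adjusted p = 5.4e-04), with overlapping groups. Nfix shares its locus with Lyl1 and Nfia with E130114P18Rik, each on the opposite strand, and Nfib with 2310067E19Rik on its own strand.

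Id3 (chr4:136143822-136145392, plus strand) encodes an ID protein that blocks bHLH factors, and it was the only member that first fell and then rose above its uninjured level by 5 d. Uninjured astrocyte libraries had 225, 215, 194.5 and 212 CPM and 2 d libraries 83.96, 82.7, 96.2, 119 and 129. All 5 libraries at 2 d were below all uninjured ones, with a log2 fold change of -1.04 ± 0.13 (SE, edgeR adjusted p = 2.1e-08). At 5 d the libraries had 313, 301, 351 and 374 CPM, all above the uninjured range (0.64 ± 0.13 SE, adjusted p = 1.2e-04), and the step from 2 to 5 d was 1.68 ± 0.13 (SE, edgeR adjusted p = 8.1e-12). Id3 was at 589.9, 457, 558 and 488 CPM at 14 d and 707, 649, 806 and 621 CPM at 70 d. The log2 fold change at 70 d was 1.72 ± 0.14 (SE, edgeR adjusted p = 2.3e-11), or 3.31-fold, and after 14 d no step between neighboring times passed the threshold. Id1, its paralog and another BMP target, was higher at every time, by a log2 fold change of 0.89 at 2 d and 1.49 at 70 d, whereas Id2 was lower at 2 d (-0.64), 5 d (-1.28) and 70 d (-0.28).

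Id4 (chr13:48261116-48266028, plus strand), whose protein also binds E proteins, fell more than Id3 at 2 d and rose later. It had 240.5, 216, 231 and 202 CPM in uninjured astrocytes and 50.5, 74.4, 60.3, 86.8 and 80.2 CPM at 2 d, with no overlap, a log2 fold change of -1.65 ± 0.14 (SE, edgeR adjusted p = 2.1e-11), or 3.14-fold lower. At 5 d it was at 119, 80.7, 91.8 and 129.98 CPM (-1.10 ± 0.15 SE, adjusted p = 1.8e-07) and at 14 d at 280.4, 203, 221 and 261 CPM. The 14 d libraries overlapped the uninjured ones, with a log2 fold change of 0.07 ± 0.15 (SE, edgeR adjusted p = 0.72). At 42 d the libraries had 474, 407, 422 and 506 CPM and at 70 d 430.03, 369, 435 and 389 CPM. Both late groups lay above the whole uninjured range, with log2 fold changes of 1.04 ± 0.15 (SE, edgeR adjusted p = 8.1e-07) and 0.88 ± 0.15 (SE, adjusted p = 1.1e-05). The smaller rise at 28 d (0.48 ± 0.15 SE, adjusted p = 0.0068) was lost without uninjured replicate 2, 3 or 4 or 28 d replicate 3 or 4 (0.42 to 0.49). The rise from 2 to 5 d (0.55 ± 0.14 SE, adjusted p = 0.0014), with overlapping groups, was lost without 5 d replicate 4 (0.43). Id4 shares its locus with A330033J07Rik on the opposite strand.

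Hes5 (chr4:154960626-154962372, plus strand), whose promoter window above held the RBPJ letters at 2 places, had the largest fall of the 9 members other than Lhx2 at every time but stood on few counts. Uninjured astrocyte libraries had 3.86, 3.602, 5.31 and 6.44 CPM, from 349, 338, 522 and 496 counts. At 2 d the libraries had 0, 12, 3, 0 and 29 counts, or 0, 0.163, 0.0376, 0 and 0.354 CPM. All 2 d libraries were below all uninjured ones, and 2 of the 5 had no count, which allows up to 3 counts in a library. That limit covers counting error of independent reads only, and 66.1% of all counts from 1 to 50 were even, so that reads may not be independent and the limit may be too low. The log2 fold change was -5.40 ± 0.68 (SE, edgeR adjusted p = 5.6e-08), or 42.4-fold lower, and without 2 d replicate 5 it was -6.56. Hes5 was at 0.192, 0.159, 0.294 and 0.277 CPM on day 5, 0.7703, 1.54, 0.552 and 0.822 CPM on day 28 and 1.34, 0.995, 1.91 and 0.783 CPM on day 70. None of these libraries reached the lowest uninjured one, and the log2 fold changes were -4.40 ± 0.70 (SE, edgeR adjusted p = 2.7e-06), -2.38 ± 0.63 (SE, adjusted p = 0.0021) and -1.93 ± 0.61 (SE, adjusted p = 0.0092) in turn. The 70 d call was lost when any single library of the comparison but 70 d replicate 3 was left out (-1.75 to -2.04). The 42 d call (-2.29 ± 0.63 SE, adjusted p = 0.0029) was lost without 42 d replicate 1 or 2 (-2.15 and -1.99). Hes1, a second Notch target of the same family, did not pass the threshold at 2 d (-0.13), was lower at 14 d (-1.34) and did not pass it at 70 d (-0.57).

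Rorb (chr19:18930609-19111196, minus strand), which encodes the retinoid-related orphan receptor beta, was lower at every time and lowest at 5 d. Its libraries had 132, 138, 176 and 156 CPM in uninjured mice and 90.2, 145, 88.1, 93.2 and 98.6 CPM at 2 d. The 2 d group overlapped the uninjured one through replicate 2 alone, with a log2 fold change of -0.54 ± 0.13 (SE, edgeR adjusted p = 3.6e-04). At 5 d the libraries had 55.1, 48.2, 42.8 and 55.2 CPM, all below both earlier groups, with a log2 fold change of -1.61 ± 0.14 (SE, edgeR adjusted p = 2.1e-11) against uninjured mice and -1.06 ± 0.13 against 2 d. At 70 d they had 77.03, 65.8, 67.6 and 81.1 CPM, again below every uninjured library (-1.04 ± 0.13 SE, edgeR adjusted p = 1.7e-07). Rora, its close relative, was lower at 2 d (-0.71), 5 d (-1.85) and 70 d (-1.17).

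Lhx2 (chr2:38339271-38369737, plus strand), a LIM homeobox gene known for holding back astrocyte production in the developing hippocampus, was at or near 0 in spinal cord astrocytes. Its astrocyte libraries had 0, 0, 0 and 14 counts in uninjured mice, 18, 29, 17 and 16 on day 5 and 13, 50, 26 and 18 on day 14, and all 4 were at 0 on day 42. Its highest count in any of the 117 libraries was 134, in a P0 mouse. No change in astrocyte libraries of the time course passed the threshold. The values at 5, 14, 28 and 70 d passed it without uninjured replicate 4, which left the uninjured group with no counts at all and so gives no fold.

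In flow-through RNA, which holds the other cells of the tissue and RNA the antibody did not capture, 6 of these genes rose at some or all times. At 2 d 9 of the 10 had changed, 5 higher and 4 lower, where 65.6% of 19207 genes had, 32.6% higher and 32.9% lower. Nfia went from 69.1, 76.1, 56.98 and 65.3 CPM in uninjured mice to 209, 332, 290.1, 278 and 213 CPM at 2 d, a log2 fold change of 2.02 ± 0.13 (SE, edgeR adjusted p = 1.2e-13). Nfib went from 50.5, 56.2, 43.3 and 46.7 to 175, 341, 189, 251 and 221 CPM (2.30 ± 0.15 SE, edgeR adjusted p = 7.3e-14). Id3 went from 40.8, 29.5, 33.4 and 28.1 to 336, 195, 268, 179 and 313 CPM (3.00 ± 0.18 SE, edgeR adjusted p = 1.1e-14, or 8.0-fold). For these 3 genes every 2 d library was above every uninjured one, and Sox2 was higher too (1.14 ± 0.14 SE, adjusted p = 3.2e-08). Nfix, Hes5, Rorb and Lhx2 were lower, Rorb falling from 11.8, 11.98, 11.02 and 10.3 to 2.38, 2.09, 5.09, 1.37 and 1.75 CPM (-2.11 ± 0.27 SE, edgeR adjusted p = 6.5e-08). Hes5 had counts in 1 of the 5 libraries at 2 d (0, 0, 0, 44 and 0), and without that library, replicate 4, its group had no counts and no fold is given. The Lhx2 call (-3.09 ± 0.97 SE, adjusted p = 0.0058) was lost without uninjured replicate 2 or 4 or 2 d replicate 2, 4 or 5 (-2.75 to -2.99). Id4 did not pass the threshold at 2 d (-0.41).

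At later times in flow-through RNA, 8 genes had changed at 5 d (5 higher, 3 lower, against 49.6% of all genes, 27.7% higher and 21.8% lower), 6 at 14 d (5 and 1, against 44.1%, 24.6% higher and 19.5% lower), 8 at 28 d (6 and 2, against 48.9%, 26.4% higher and 22.6% lower), 6 at 42 d (all higher, against 44.6%, 25.3% higher) and 6 at 70 d (all higher, against 37.6%, 21.8% higher). Id3 stayed up, with 244, 151, 248 and 212 CPM at 70 d (2.71 ± 0.18 SE, edgeR adjusted p = 7.5e-13), and so did Sox9 (1.74), Sox2 (0.87), Nfia (0.87) and Nfib (0.94). Id4 was lower at 5 d (-1.18 ± 0.19 SE, adjusted p = 6.4e-06) and higher at 42 d (1.15 ± 0.19 SE, adjusted p = 1.1e-05), with 10.2, 6.15, 6.96 and 10.1 CPM and 44.02, 40.8, 47.1 and 43.9 CPM. Nfix was lower at 2 and 28 d (-1.75 and -2.06) and passed the threshold at no other time. Some of these calls did not hold in every alternative run. Id4 at 28 d (0.61) and at 70 d (0.64) and Hes5 at 5 d (-3.13) lay near the threshold. Each was lost on leaving out any of its 8 libraries (0.56 to 0.65, 0.58 to 0.68 and -3.01 to -3.30). Both Id4 calls were also lost with DESeq2 (adjusted p = 0.024 at 28 d and 0.014 at 70 d) and with its size factors. The Id4 call at 28 d was lost without the low-count filter and with the replicate block as well. At 14 d, Sox9 (1.06) was lost without uninjured replicate 2 (0.96) and Sox2 (0.54) without uninjured replicate 2 or 14 d replicate 2 (0.46 and 0.49). Sox2 at 14 d was also lost with DESeq2 size factors (0.43). Markers of other cells moved in the same libraries. All 6 stromal markers were higher at 2 d, their summed level going from 256.2 to 579.5 CPM in uninjured mice to 1358 to 8567 CPM, 10 of 12 myeloid markers were higher (362.3 to 446.7 against 7274 to 10880 CPM), and 3 of 6 markers of oligodendrocyte precursor cells (OPC) were higher and 1 lower (151.5 to 191.5 against 379.5 to 400.2 CPM). All 10 neuron markers were lower (7878 to 9157 against 441.9 to 1089 CPM), and of 10 oligodendrocyte markers 9 were lower and 1 higher (24070 to 27560 against 9947 to 16560 CPM). No marker of these lists was at 0 in any group, and their part in the rises and falls was not tested.

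**Figure D3:**
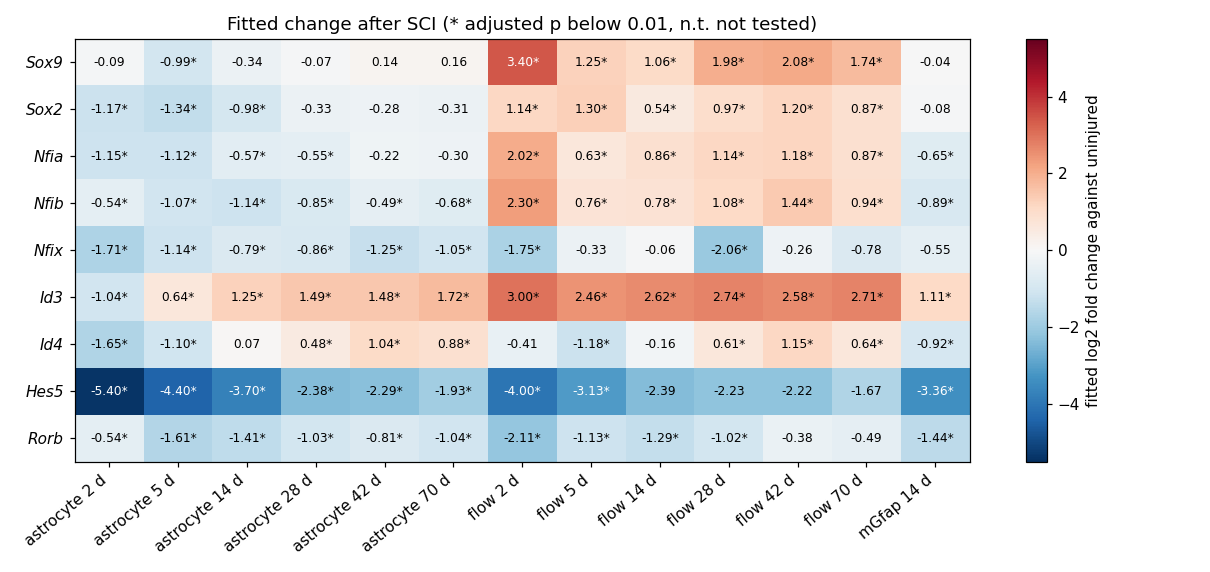
Fitted log2 fold change (color, and printed value) of 9 genes against uninjured mice of the same line and fraction, with * where the adjusted p was below 0.01 and Lhx2 left out for its low counts. Sox9, Sox2, Nfia and Nfib were blue or near 0 in astrocytes and red in flow-through at the same times, Id3 was red in both from 5 d and Hes5 was blue throughout.

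The response to injury differed between the fractions for 8 of the 10 genes when the 6 fraction by time terms were tested together, where 62.5% of 19640 genes differed. The test gave F = 62.2, adjusted p = 1.7e-19 for Id3, F = 61.5, adjusted p = 2.2e-19 for Nfia, F = 39.5, adjusted p = 7.7e-16 for Nfib and F = 36.9, adjusted p = 2.6e-15 for Sox2 (edgeR). Sox9 (F = 22.6, adjusted p = 1.2e-11), Rorb (F = 13.9, adjusted p = 1.5e-08), Id4 (F = 9.01, adjusted p = 3.3e-06) and Nfix (F = 8.51, adjusted p = 6.5e-06) also passed, and Hes5 (adjusted p = 0.8) and Lhx2 (adjusted p = 0.023) did not. Hes5 passed without 2 d flow-through replicate 4 (F = 3.61) and Lhx2 without uninjured astrocyte replicate 4 (F = 5.81), but each then had a group with no counts at all, so that neither is read as a difference. DESeq2 also called Lhx2 (adjusted p = 0.0042).

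Enrichment over the flow-through RNA of the same mice was lowest at 2 d for 5 of the 8 genes tested then, Sox9, Nfia, Nfib, Id3 and Id4. At 2 d, 5 of these 8 genes were higher in astrocytes and 2 were lower, where 55.7% of all genes differed, 27.7% higher and 28.1% lower. Id3, enriched in uninjured mice, was lower in astrocyte than in flow-through RNA at 2 d (log2 ratio -1.37 ± 0.19 SE, edgeR adjusted p = 6.4e-05), and so was Nfia (-1.04 ± 0.15 SE, adjusted p = 8.2e-05). Every 2 d astrocyte library had less of both genes than every 2 d flow-through library. Nfib did not differ past the threshold (0.04 ± 0.18 SE, adjusted p = 0.86), and Sox9 was down to 1.41 ± 0.35. Rorb went against this, with a log2 ratio of 5.30 ± 0.37 at 2 d, or 39.5-fold, against 3.75 in uninjured mice. From 5 d on, 8 genes (all but Hes5 and Lhx2) were higher in astrocyte RNA at every time, where 64.4% of all genes differed, 32.4% higher, at 5 d. For the 4 later times this background was 62.4%, 30.7% higher, then 64.4%, 32% higher, then 46.8%, 24.1% higher and last 45.7%, 22.6% higher. At 70 d the log2 ratio was 3.69 for Id4, 3.32 for Sox2, 3.31 for Sox9, 3.18 for Rorb, 2.74 for Nfix, 1.67 for Id3, 1.24 for Nfib and 0.95 for Nfia. Hes5 passed the threshold at none of the 5 later times, at -0.30 to 0.98. Ratios at different times were not tested against each other here beyond the joint test above.

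Genes around these factors were read from lists of their pathways. The shares to read these counts against are those of all genes in the same fit, 60.1% past the threshold at 2 d (29.9% lower), 56.8% at 5 d (28.1% lower) and 45.3% at 70 d (21.5% lower, 23.9% higher). Of 15 measured relatives (other NFI, SOX, ID, ROR and LHX genes), 11 were lower and 3 higher at 2 d, with a median log2 fold change of -0.83, and 7 lower and 4 higher at 70 d (-0.35). Sox8, a SOXE gene like Sox9, fell from 152.7 to 19.45 CPM at 2 d (log2 fold change -2.97 ± 0.11) and was at 39.31 CPM at 70 d (-1.95). Sox3, a close relative of Sox2, fell by 3.97 on the log2 scale at 2 d and Sox1 by 2.10 at 70 d. In the Notch pathway, 8 of 17 genes were lower and 2 higher at both 2 and 5 d (medians -0.89 and -0.78), and at 70 d 8 were lower and 1 higher (-0.57). The number past the threshold in either direction was thus near the share of all genes. Its calls were mostly lower, while those of all genes were split about evenly. The Notch targets Heyl and Nrarp had its largest changes at 2 d. Heyl went from 108.1 CPM in uninjured astrocytes to 5.899 CPM (log2 fold change -4.19 ± 0.23), and Nrarp, a feedback inhibitor of Notch, from 51.26 to 2.683 CPM (-4.25 ± 0.28). At 70 d both were still lower, by 3.45 and 3.19 on the log2 scale. In uninjured mice 11 of the 17 Notch genes were higher in astrocytes than in flow-through RNA and 4 lower (median log2 ratio 2.48). Of all genes in that fit 62.1% differed, 30.7% higher in astrocytes.

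In the BMP pathway, 8 of 17 genes were lower and 3 higher at 2 d (median -0.74), against 6 lower and 4 higher at 70 d (0.03). The number past the threshold in either direction at 2 d was again near the share of all genes, with more lower than higher. The ligand Bmp2 rose from 1.023 to 10.82 CPM at 2 d (3.41 ± 0.25) and Bmp6 fell by 1.87 on the log2 scale. At 70 d the ligand Bmp7 and the receptor Bmpr2 were lower, by 1.16 and 1.11. Among 8 measured bHLH genes bound or opposed by ID and HES proteins, 3 were lower and 1 higher at 2 d and 5 lower and 1 higher at 70 d (medians -0.08 and -0.64). The oligodendroglial factors Olig1 and Olig2 fell by 2.76 and 3.77 on the log2 scale at 70 d. In the same astrocyte libraries 8 of 10 oligodendrocyte markers were lower at 70 d, their summed level going from 3677 to 8475 CPM in uninjured mice to 1956 to 2201 CPM (1250 to 3030 CPM at 2 d, 6 of 10 lower), with none at 0, and their part in the falls of Olig1, Olig2 and Sox8 was not tested. Of 11 other astrocyte and radial glial transcription factors measured, all 11 were enriched in uninjured astrocytes (median log2 ratio 3.86), where 30.7% of all genes were. After injury 7 of these factors were lower and 2 higher at 2 d (-0.85), and 5 lower and 1 higher at 70 d (-0.42). They included Gli2, a Hedgehog effector (-2.31 at 2 d and -1.47 at 70 d), Pax6 (-1.67 at 2 d) and Etv5 (-2.82 at 70 d). Among 6 gliogenic target genes of NFIA and SOX9, 4 were lower and none higher at 2 d (-1.72), and at 70 d 4 were lower and 2 higher (-0.63). Mmd2 fell from 1050 to 155 CPM at 2 d (-2.75) and Apcdd1 fell by 2.32 on the log2 scale. At 70 d Apcdd1 was still lower (-1.14), while Gfap, the intermediate filament gene of reactive astrocytes, was higher (1.07). Slc1a3 and Gfap are also among the astrocyte markers, and Sox10 among the Schwann markers.

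In uninjured mice, 3 of the 10 genes, Id4, Sox2 and Sox9, differed between mGfap-Cre-73.12 astrocytes at P63 and Aldh1l1-CreERT2 astrocytes, where 12.4% of 17848 genes did, 5.54% higher and 6.86% lower. Id4 was 389, 365, 393, 365 and 344 CPM in mGfap-Cre-73.12 mice against 240.5, 216, 231 and 202 CPM, with no overlap and a log2 difference of 0.70 ± 0.10 (SE, edgeR adjusted p = 5.1e-05). Sox2 was lower, at 239.995, 244, 271, 271 and 249.7 CPM, again with no overlap (-0.68 ± 0.10 SE, edgeR adjusted p = 8.7e-05). Sox9 was lower (-0.59 ± 0.15 SE, adjusted p = 0.0093) with overlapping groups, and this call was lost without any of 7 of the 9 libraries (-0.47 to -0.62, all but Aldh1l1-CreERT2 replicate 1 and P63 replicate 4), with the labelled sex as a covariate (-0.42, adjusted p = 0.21) and with replicate number as a block (adjusted p = 0.022). In P63 mice, 9 of 9 genes that could be tested were enriched over flow-through RNA, where 67.8% of all genes differed, 32.6% higher, from 1.74 for Nfia to 4.14 for Sox9. Hes5 was at 7.28, 7.47, 8.23, 9.07 and 9.203 CPM in these astrocyte and 2.11, 1.77, 1.83, 1.54 and 2.72 CPM in flow-through libraries (log2 ratio 2.03 ± 0.17 SE, edgeR adjusted p = 4.0e-08). The age that the paper gives for the Aldh1l1-CreERT2 mice is above P63, so line and age cannot be told apart in this comparison. Markers of other cells differed between the lines as well. All 6 OPC markers (494.6 to 568.6 CPM in sum at P63 against 142.5 to 204.9 CPM) and 4 of 6 ependymal markers (137.6 to 156.2 against 78.88 to 93.11 CPM) were higher in mGfap-Cre-73.12 libraries, as were 8 of 10 oligodendrocyte markers (10450 to 14610 against 3677 to 8475 CPM), with none at 0, and their part in the differences was not tested.

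At 14 d after SCI, mGfap-Cre-73.12 astrocyte libraries also had less Hes5, Rorb, Nfia and Nfib and more Id3 than uninjured mice of their line, while the changes of Id4 and Sox2 differed between the lines. Against P63, 7 of the 10 had changed, 2 higher and 5 lower, where 44.2% of all genes had, 27.7% higher and 16.4% lower. The injured mice were all females and the P63 mice of both sexes, and with the labelled sex as a covariate only the Lhx2 call below was lost. By the age the paper gives at injury, the injured mice were also older than P63. Injury and age thus cannot be told apart here, and the difference between the lines' changes has the same limit. Hes5 went from 7.28 to 9.203 CPM at P63 to 0.927, 0.977, 0.925, 0.449 and 0.489 CPM, with no overlap (-3.36 ± 0.29 SE, edgeR adjusted p = 2.9e-08). Rorb went from 133, 114, 114, 129 and 138 to 32.8, 60.3, 39.999, 27.9 and 57.03 CPM (-1.44 ± 0.17 SE, edgeR adjusted p = 6.9e-07), and Nfib and Nfia were lower by -0.89 ± 0.10 and -0.65 ± 0.10. Id3 rose from 227, 244, 245, 269.4 and 241 to 649, 374, 487, 529.9 and 438 CPM, all above P63 (1.11 ± 0.12 SE, edgeR adjusted p = 3.2e-07). Id4 fell from its P63 level to 164, 203, 188, 170.4 and 199.9 CPM (-0.92 ± 0.09 SE, edgeR adjusted p = 1.4e-07), whereas in the Aldh1l1-CreERT2 line it was 0.07 ± 0.15 at the same time. Sox2 did not pass the threshold, at 227, 248, 241, 187 and 236 CPM against 239.995 to 271 CPM (-0.08 ± 0.09 SE, adjusted p = 0.51). The difference between the lines' changes was past the threshold for these 2 genes, where it was for 12.7% of all genes, 7.71% higher and 4.94% lower, at -1.02 ± 0.14 (SE, edgeR adjusted p = 2.8e-05) for Id4 and 0.87 ± 0.14 (SE, edgeR adjusted p = 2.0e-04) for Sox2. Both genes already differed between the uninjured groups, and edgeR called neither between the lines at 14 d. Lhx2 was higher (4.13 ± 1.20 SE, adjusted p = 0.0069, from 0, 0, 5, 2 and 0 counts to 12, 24, 47, 40 and 66). That call was lost without any of 14 d replicates 3, 4 and 5 or P63 replicates 1, 2, 4 and 5 (3.83 to 4.22) and with the labelled sex as a covariate (adjusted p = 0.057), and P63 replicate 3, without which the value was 5.46, held most of the P63 counts. Markers moved in the same libraries. From P63 to 14 d, 9 of 12 astrocyte markers were lower (75430 to 84130 against 34480 to 55050 CPM in sum), all 10 oligodendrocyte markers were higher (10450 to 14610 against 28260 to 42260 CPM), and so were 4 of 6 OPC markers (494.6 to 568.6 against 699.8 to 1102 CPM) and 10 of 12 myeloid markers (30.55 to 46.79 against 303.9 to 2280 CPM), with none at 0. In flow-through RNA of the 14 d mice the oligodendrocyte markers summed to 11480 to 18230 CPM and the OPC markers to 161.4 to 241.3 CPM. Both sums were thus higher in the 14 d libraries called astrocyte here, a name that stands for the tag. The part of these cells in the changes was not tested.

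Set against Aldh1l1-CreERT2 astrocytes at 14 d directly, edgeR called none of the 10 genes different, where 23.3% of all genes were, with 4 at an unadjusted p under 0.05 and 2 called by DESeq2. Id4 was at -0.32 and Hes5 at 1.04 on the log2 scale. Id4 passed without Aldh1l1-CreERT2 14 d replicate 2 or 3 (-0.40 and -0.47) and Hes5 without mGfap-Cre-73.12 14 d replicate 4 or 5 (1.17 and 1.16). All 10 oligodendrocyte markers were higher in the mGfap-Cre-73.12 libraries at 14 d (28260 to 42260 CPM in sum) and all 12 myeloid markers were lower (303.9 to 2280 against 11790 to 17910 CPM). In these mice 8 genes were enriched over flow-through RNA, where 46.9% of all genes differed, 23.3% higher, from 0.66 for Nfia to 4.35 for Sox2.

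With age, the 10 genes followed different courses in mGfap-Cre-73.12 astrocytes. From P0 to P63, 3 had changed, Rorb and Id4 higher and Hes5 lower, where 50.2% of 18041 genes had, 25.1% higher and 25.1% lower. Rorb rose from 38.7, 46.6, 21.1 and 47.8 CPM at P0 to 133, 114, 114, 129 and 138 CPM at P63, with no overlap (1.69 ± 0.18 SE, edgeR adjusted p = 7.1e-09). Id4 rose from 159, 106, 88.4 and 160.1 to 389, 365, 393, 365 and 344 CPM (1.52 ± 0.14 SE, edgeR adjusted p = 1.8e-10). Both kept their calls without P0 replicate 3, at 1.51 and 1.39. Hes5 had 7.603, 26.3, 7.0998 and 18.9 CPM at P0, 26.5, 21.3 and 19.1 at P3 and 7.28, 7.47, 8.23, 9.07 and 9.203 at P63. The P0 and P63 groups overlapped (-0.88 ± 0.29 SE, edgeR adjusted p = 0.0097). That call was lost without P0 replicate 2 (-0.45) or 4 (-0.72) or any P63 library (-0.84 to -0.92), with the sex covariate and with the replicate block, and without P0 replicate 3 it was -1.09. Sox9 did not differ past the threshold (0.77 ± 0.27 SE, adjusted p = 0.017), and did without P0 replicate 3 (0.47, adjusted p = 0.0093) or 4 (0.96). Id3 did not (0.16, adjusted p = 0.36), and was at 0.04 (adjusted p = 0.82) without P0 replicate 3, while it passed without P0 replicate 4 (0.40).

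Between neighboring ages, the calls fell mostly between P7 and P21. The steps in that span also had the largest shares over all genes, 18.8% and 23.1%, so this timing was not particular to the 10 genes. edgeR called none of the 10 from P0 to P3 (4.83% of all genes), with 5 at an unadjusted p under 0.05 and 2 called by DESeq2, and none from P3 to P7 (2.73%), with 2 and 0. Sox2 from P0 to P3 passed without P0 replicate 2 or 4 (0.60 and 0.66), and Id3 without P0 replicate 4 (0.84). Without P0 replicate 3 again none was called, with Sox2 at 0.37 and Id3 at 0.48 (0.53 and 0.61 with it). From P7 to P14, 2 genes changed, where 18.8% of all genes did, 10.4% higher and 8.33% lower. Id4 went from 243, 223 and 207 CPM at P7 to 368, 312, 309, 384 and 392 at P14 (0.65 ± 0.14 SE, edgeR adjusted p = 0.0011), all P14 mice being higher, a call lost without P7 replicate 3 (0.60). Hes5 went from 19.04, 12.999 and 13.2 to 6.02, 6.74, 4.68, 7.87 and 8.996 CPM (-1.14 ± 0.31 SE, edgeR adjusted p = 0.0059), all P14 mice being lower, a call lost without any P7 mouse or P14 replicate 1, 2 or 3 (-0.94 to -1.24). From P14 to P21, 3 genes fell, where 23.1% of all genes changed, 11.7% lower. Id3 fell from 565, 474, 572, 685.7 and 661 to 302, 232, 294 and 268 CPM (-1.13 ± 0.15 SE, edgeR adjusted p = 1.7e-06). Sox2 fell from 329.8, 269.7, 332, 364 and 338 to 203, 191, 219 and 185 CPM (-0.73 ± 0.12 SE, edgeR adjusted p = 4.2e-05) and Nfib from 442, 340.3, 439, 449 and 429.7 to 305, 334, 277 and 278 CPM (-0.51 ± 0.13 SE, adjusted p = 0.0029). In each of the 3, every P21 mouse was below every P14 mouse, and Nfib lost its call without P21 replicate 3 or 4 (-0.47 and -0.46). Nfix passed without P21 replicate 1 (0.97).

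From P21 to P35 edgeR called none of the 10, where 0.66% of all genes were called, and none had an unadjusted p under 0.05 or was called by DESeq2. From P35 to P63 it called 1, Id4 (0.61 ± 0.13 SE, adjusted p = 0.0045), where 2.4% of all genes were called, 0.604% higher, and the call was lost without P35 replicate 1 or 3 or P63 replicate 1, 2, 3 or 4 (0.56 to 0.62). Id3 at P14 (474 to 685.7 CPM) overlapped the range of injured adult astrocytes of the same line at 14 d (374 to 649 CPM), while Hes5 at P14 (4.68 to 8.996 CPM) was above the range of injured adults (0.449 to 0.977 CPM). These 2 groups were not tested against each other. The summed level of the astrocyte markers rose from 8773 to 23110 CPM at P0 to 75430 to 84130 CPM at P63. That of the 6 Schwann markers fell from 8148 to 23950 CPM at P0 and 9299 to 13900 CPM at P14 to 1442 to 2745 CPM at P63, with 3 of 6 lower, and that of the 6 stromal markers, all lower, from 3872 to 9394 CPM to 179.6 to 302.6 CPM, with none at 0. The 10 oligodendrocyte markers went from 3782 to 8678 CPM in sum at P0 to 24660 to 27920 CPM at P21 and 10450 to 14610 CPM at P63 (7 of 10 higher than at P0), and the 6 OPC markers from 138.2 to 169.8 CPM at P0 to 1105 to 1211 CPM at P21 and 494.6 to 568.6 CPM at P63 (4 of 6 higher). At P35 the mice spread widely, the 10 neuron markers summing to 534.5 to 4195 CPM and the 6 Schwann markers to 324.7 to 12360 CPM. Nfix ran from 118.68 to 334.15 CPM at P35, so the steps into and out of P35 rest on an uneven group. The part of these cells in the changes with age was not tested. All P0 mice were labelled male and P63 mice were of both sexes.

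**Figure D4:**
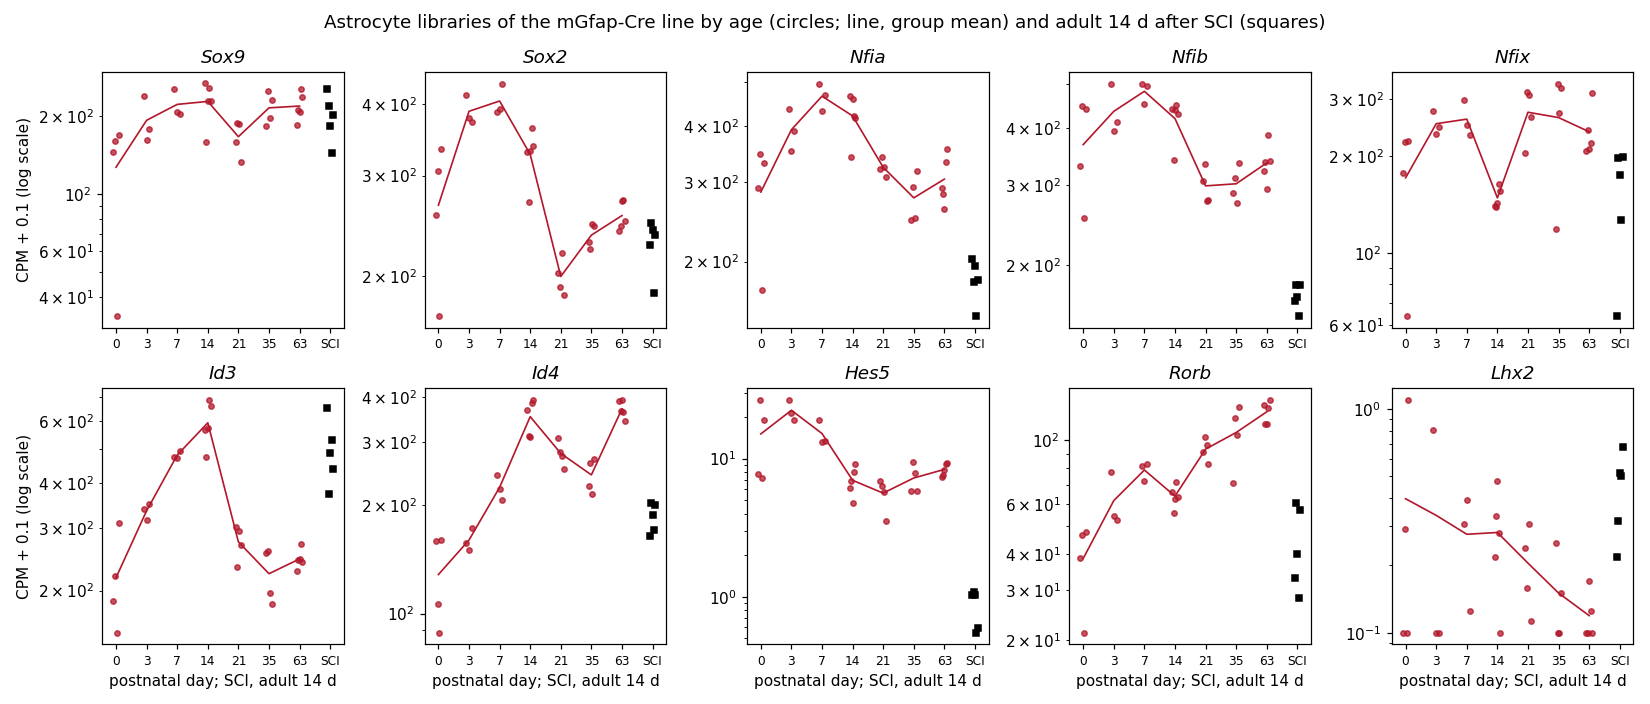
CPM (log scale, 0.1 added) of each gene in each mGfap-Cre-73.12 astrocyte library by postnatal day (circles, with a line through the group means) and in adults 14 d after SCI (squares). Rorb rose with age and Id3 peaked at P14, the Hes5 group mean was highest at P3, and 1 P0 library lies far below the others for Sox9 and Nfix.

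Males and females did not differ past the threshold for any of the 10 genes at 5 and 14 d (edgeR, time point as covariate), with none at an unadjusted p under 0.05 and none called by DESeq2. Of all 17639 genes tested, 9 differed (0.051%). Log2 differences of the members ran from -0.63 to 0.16.

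Over the 70 astrocyte libraries, which share depth, injury and age as sources of variation, the genes whose log2 CPM ran most like a member's were found among 11435 others (11436 for Hes5 and Lhx2), as a description. Nfia was closest to Ppp2r2b (Pearson's r 0.953) and Dab1 (0.94), and Nfib ran closely with Ttpa (0.932). Id3 was closest to Mia (0.945) and Dbi (0.929), and Nfix to Ptpra (0.933) and Ccdc88c (0.885). Hes5 was closest to Dpp6 (0.931) and Reln (0.92), Id4 to Tmie (0.901) and 2500004C02Rik (0.899), and Rorb to Gpc5 (0.897) and Baalc (0.894). Sox2 was closest to Fjx1 (0.851), Sox9 to Bcr (0.826) and Slc14a1 (0.818), and Lhx2, with its low counts, to Nsmf (0.603) and Siah2 (0.566). The range of these values puts Sox9, Sox2 and Lhx2 below the other members in how closely any other gene ran with them.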

How the data were processed

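RNA of mouse spinal cord was sequenced from anti-HA RiboTag precipitates and from flow-through RNA. The values deposited by the authors are whole-number counts of reads per Entrez gene without normalization, made by trimming with Trimmomatic, alignment to mm10 with HISAT2 and counting with featureCounts in Galaxy at default settings (versions not given in the sources used here). Default counting ignores strand, so overlapping genes on opposite strands cannot be told apart. The 117 files each held 27179 genes, with a different row order in 18 files, and were joined by identifier. RefSeq annotation of GRCm38.p6 named 25275 identifiers, 1904 stayed unnamed and 25069 had an exon length. No pair of libraries held identical values.

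Groups came from the labels. A 5 d flow-through library labelled male, whose title names no male, was kept with the females. Counts were tested with edgeR 4.0.16 (glmQLFit with legacy=TRUE and robust=TRUE) in R 4.3.3, after TMM scaling and the filterByExpr low-count filter, with Benjamini-Hochberg adjustment over all genes tested and a threshold of 0.01. Single fits held the 29 female astrocyte libraries of the time course, the 29 flow-through libraries, the 18 libraries for the lines and the 28 for the ages, and each enrichment had its own fit. The fits were tested on simulated counts. P-values measure the spread between mice, and low counts limit Hes5 and Lhx2.

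The 10 genes are always named. From each pathway list, the 2 genes with the largest change past the threshold at 2 d and at 70 d whose groups did not overlap were named, and close relatives beside their member. Genes of like pattern were the 2 of highest Pearson correlation of log2 CPM (prior count 2) among genes with a symbol and a mean of at least 5 CPM. Some genes that these rules name are not reported here. Members and lists were chosen with earlier results of these data known. The 2 libraries of an animal share its number, and their deviations from the group means correlated between -0.04 and 0.60 across genes. The block on the animal changed no member's call in the enrichments. Alternatives were DESeq2 1.42.0, its size factors, no low-count filter, 2 groups alone, a replicate block, labelled sex, a threshold of 0.05 and leaving out each library. Promoter windows and motif shares were read from RefSeq tables.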

Additional observations from a re-analysis of the deposited data

Results flagged for a closer look

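Single libraries lay far from the rest of their group by Dixon's test at the 95% level in 9 of 259 pairs of a gene and a group of 4 to 10 libraries. Chance flags about 1 in 20 pairs, and pairs that share libraries are not independent. Sox9 was 34.1 CPM in replicate 1 of the mGfap-Cre-73.12 flow-through libraries at 14 d (others 14.1 to 19.4). Sox2 was 19.4 CPM in uninjured flow-through replicate 4 (others 16.4 to 16.9). Nfib was 340 CPM in P14 replicate 2 (others 430 to 449). At 2 d, Hes5 was 0.734 CPM in flow-through replicate 4, with all others at 0, and Rorb was 145 CPM in astrocyte replicate 2 (others 88.1 to 98.6) and 5.09 CPM in flow-through replicate 3 (others 1.37 to 2.38). Lhx2 was 0.182 CPM in uninjured astrocyte replicate 4 (others 0), 0.288 CPM in 5 d astrocyte replicate 2 (others 0.177 to 0.192) and 0.309 CPM in mGfap-Cre-73.12 14 d flow-through replicate 2 (others 0.0968 to 0.148).

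Differences between the changes of 2 groups were past the threshold of the edgeR test in 10 cases. The change of mGfap-Cre-73.12 astrocytes at 14 d differed from that of Aldh1l1-CreERT2 astrocytes by 0.87 on the log2 scale for Sox2 and by -1.02 for Id4. The time course differed between astrocyte and flow-through RNA with F values of 22.6 for Sox9, 36.9 for Sox2, 61.5 for Nfia, 39.5 for Nfib, 8.51 for Nfix, 62.2 for Id3, 9.01 for Id4 and 13.9 for Rorb.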

How the results depend on the processing

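Of 386 pairs of a gene and a comparison tested, 199 were past the threshold, and none of these changed direction under any alternative run. Without the low-count filter 383 pairs kept their side of the threshold, with DESeq2 size factors 381, with the replicate block 380 and with DESeq2 361. Counts of members that moved by over 1.5 times were these. With a threshold of 0.05, 2 changed from 14 to 28 d (1 before), 3 from 28 to 42 d (0), 1 from 42 to 70 d (0), 2 between the lines at 14 d (0), 3 from P0 to P3 (0) and 7 from P14 to P21 (3). DESeq2 called 1 from 28 to 42 d, 2 between the lines at 14 d, 2 from P0 to P3 and 5 from P14 to P21, and its size factors gave 1 between the lines at 14 d. Fitting the 2 groups alone called 2 from P3 to P7 and 7 from P14 to P21. Leaving out 1 library gave 1 to 2 members from 14 to 28 d, 0 to 1 between the lines at 14 d, 0 to 2 from P0 to P3, 0 to 2 from P7 to P14 and 0 to 1 from P35 to P63. The cause was not tested. Over all genes, calls from 14 to 28 d went from 1348 to 2795 with a threshold of 0.05, from 28 to 42 d to 1094, from 42 to 70 d from 2293 to 4288, from P0 to P3 from 871 to 2188, from P3 to P7 to 1197, from P7 to P14 from 3388 to 5123, from P21 to P35 from 119 to 444, from P35 to P63 from 433 to 1363, between uninjured lines from 2213 to 3978 and for the lines' changes from 2258 to 3882. DESeq2 called 730 from 28 to 42 d, 1570 from P0 to P3, 965 from P3 to P7, 417 from P21 to P35 and 998 from P35 to P63. The 2 groups alone gave 2 from 28 to 42 d, 158 from 42 to 70 d, 0 from P0 to P3, 1200 from P3 to P7, 5592 from P7 to P14 and 27 from P21 to P35. With the labelled sex, calls fell to 729 between uninjured lines, 1423 for the lines' changes and 497 from P0 to P3. The replicate block gave 186 from 28 to 42 d. Numbers shared by different mice did not pair them (correlations of -0.22 to 0.22). With the replicate block 5 members changed from 2 to 5 d (6 without), 8 in flow-through RNA at 2 d (9), 7 at 28 d (8), 2 between uninjured lines (3), 4 from P14 to P21 (3) and 2 from P0 to P63 (3), and no other count of members moved.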
